A study of Mus musculus with 13 samples.

Results

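Loss of the cell cycle inhibitor p21 was measured here in intestinal cells that had already lost casein kinase Iα, by setting 2 CKIalpha KO/p21 KO arrays against 2 CKIalpha KO arrays. The arrays were chosen by their titles and are 4 of the 13 in the series. All 4 came from enterocytes of mice with a homozygous gut-specific knockout of CKIalpha on a background labelled 129/SVJ, and the first pair also lacked p21. The 4 arrays used beside them, 2 CKIalpha Het/p21 KO and 2 CKIalpha Het, came from mice heterozygous for the same knockout, so every group carried at least 1 knocked-out CKIalpha copy. A further pair, CKIalpha KO/p53 KO, is set beside the p21 knockout for single genes and lists, and the heterozygous pair CKIalpha Het/p53 KO enters the fit and is shown in plots. The labels call the 2 arrays of a group biological replicates. They state neither age nor sex, nor the promoter that drives the gut deletion. Values are the authors' log2 intensities from Affymetrix arrays, for 16721 genes with 1 gene symbol that passed a filter on dim signals.

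CKIalpha, encoded by Csnk1a1, phosphorylates β-catenin and so marks it for degradation. Its loss in the gut stabilises β-catenin and also activates p53. The protein p21, encoded by Cdkn1a, is a p53 target that binds and inhibits the cyclin-dependent kinases. When these kinases are inhibited, the retinoblastoma protein and its relatives keep E2F target genes for DNA replication, and the later genes of mitosis, repressed. The comparison asks what changes in CKIalpha-deficient epithelium once this brake is removed.

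The arrays carried the signal of intestinal epithelium. The epithelial genes Epcam and Vil1 and the absorptive enterocyte genes Fabp2, Sis and Apoa4 lay between 11.01 and 13.64 on all 4 arrays, on the log2 scale. Transcripts of other cells were measured as well, among them the goblet cell mucin Muc2, the Paneth cell lysozyme Lyz1 and the T cell co-receptor Cd8a. Replicates were less alike in CKIalpha KO/p21 KO than in CKIalpha KO, with 781 and 349 genes that differed by more than 2-fold between the arrays of the group. CKIalpha KO/p21 KO replicate 2 stood farther from the CKIalpha KO arrays than replicate 1 in the replication, mitosis, damage, crypt base, interferon, lymphocyte and xenobiotic lists described below, so list medians are given also without an array where its removal moved them by more than 1.5 times or turned their sign. Xist, the X-inactivation transcript, was at 3.15 and 10.10 on the CKIalpha KO/p21 KO arrays and at 3.94 and 9.36 on the CKIalpha KO arrays, so in each group replicate 1 was the low and replicate 2 the high array.

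The targeted gene p21 was low where the labels place its knockout. The probe set annotated to Cdkn1a, which is shared with the transcript 4930567H12Rik and so entered no gene test, read 5.62 and 5.86 on the CKIalpha KO/p21 KO arrays and 9.28 and 10.30 on the CKIalpha KO arrays. It was at 5.62 and 5.52 in CKIalpha Het/p21 KO, against 9.12 and 9.35 in CKIalpha Het. All p21 KO arrays were thus far below all arrays with p21, by a mean log2 of -4.05 in CKIalpha KO and -3.66 in CKIalpha Het.

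Rab44, a gene for a large Rab family GTPase and the next measured gene on one side of Cdkn1a, was high where the Cdkn1a probe set was low. It read 8.51 and 8.23 on the CKIalpha KO/p21 KO arrays and 4.86 and 4.73 on the CKIalpha KO arrays, with no overlap. Rab44 rose 11.9-fold in the limma test, a log2 difference of 3.57 ± 0.22 (SE of the fit, 2 arrays a group, adjusted p = 0.000374). The same loss of p21 with CKIalpha present in 1 copy gave 7.53 and 8.17 in CKIalpha Het/p21 KO, against 5.21 and 4.97 in CKIalpha Het (2.76, adjusted p = 0.00421). There Rab44 was the 1 gene that passed on the higher side (0.00598%) and 0 passed on the lower, with 2.51% and 2.49% of genes at an unadjusted p under 0.05. The rise was not shown to depend on CKIalpha, since the difference between the 2 effects was 0.81 (limma interaction, adjusted p = 0.615). With the p53 knockout in its place, Rab44 differed by 0.05 from CKIalpha KO (adjusted p = 0.929). Of the 20 measured genes nearest Cdkn1a, 10 on either side, Rab44 was the 1 that passed. The other 19 lay between -0.66 and 0.90 with a median of -0.04. The upper end was the splicing factor gene Srsf3, at 11.11 and 11.64 in CKIalpha KO/p21 KO and 10.30 and 10.66 in CKIalpha KO (adjusted p = 0.172).

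The limma test passed 4 genes as higher and 2 as lower in CKIalpha KO/p21 KO than in CKIalpha KO, which is 0.0239% and 0.012% of the 16721 genes tested. An unadjusted p under 0.05 was reached by 1204 genes on the higher side (7.2%) and 801 on the lower (4.79%). Besides Rab44, the genes that rose were Cfi, Stox2 and Abcb1b, and those that fell were Ceacam10 and the predicted gene Gm10044. The counts changed with the arrays used: the 4 arrays fitted alone called 0 genes, with 549 higher and 375 lower at an unadjusted p under 0.05, and the fit without CKIalpha KO/p21 KO replicate 1 called 761 higher and 387 lower. The replicate left there is the more distant one, and its spread is taken from the other groups.

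Cfi encodes complement factor I, a protease that inactivates the complement fragments C3b and C4b. It read 6.84 and 7.27 in CKIalpha KO/p21 KO and 3.91 and 4.65 in CKIalpha KO, against 4.81 and 4.43 in CKIalpha Het/p21 KO and 4.26 and 4.13 in CKIalpha Het. Of these 8 arrays the 2 that lacked both genes stood above the rest. The array left out of all comparisons, whose title and genotype label conflict, read close to replicate 1 of the double knockout and above both CKIalpha KO arrays. Its genotype label is CKI KO, without p21 KO. Cfi rose 6.85-fold, by 2.78 ± 0.25 on the log2 scale (adjusted p = 0.00529), and the p21 knockout in CKIalpha Het gave 0.42 (adjusted p = 1.0). The difference of the effects was 2.35 and did not pass (limma interaction, adjusted p = 0.308). It was 2.57 without CKIalpha KO/p21 KO replicate 1, a fit that leaves 1 array in that group. Loss of p53 in CKIalpha KO gave 0.31 (adjusted p = 0.497).

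Abcb1b, one of the mouse genes for the drug efflux pump P-glycoprotein, read 6.31 and 5.98 in CKIalpha KO/p21 KO and 3.80 and 4.61 in CKIalpha KO. It rose 3.83-fold (1.94 ± 0.24, adjusted p = 0.0342). Stox2, for a winged-helix protein, read 5.39 and 5.53 in CKIalpha KO/p21 KO and 3.40 and 3.77 in CKIalpha KO, where replicate 1 was below its array's 25th percentile. It rose 3.67-fold (1.87 ± 0.21, adjusted p = 0.0214). On the 4 CKIalpha Het/p21 KO and CKIalpha Het arrays Abcb1b lay between 3.98 and 4.53 and Stox2 between 3.50 and 4.24. The p21 effect there was 0.50 for Abcb1b and 0.52 for Stox2, with neither passing (adjusted p = 1.0 and 0.942).

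Ceacam10, of the carcinoembryonic antigen family, read 5.28 and 5.15 in CKIalpha KO/p21 KO and 7.26 and 7.84 in CKIalpha KO. The groups did not overlap, and the double knockout arrays also lay below the CKIalpha Het/p21 KO arrays at 6.66 and 6.12 and the CKIalpha Het arrays at 6.45 and 6.17. Ceacam10 was 5.04-fold lower (-2.33 ± 0.27, adjusted p = 0.0214). Gm10044, named after its values were seen, read 3.69 and 3.70 in CKIalpha KO/p21 KO and 5.04 and 4.93 in CKIalpha KO and fell by 1.29 (adjusted p = 0.0214). Rab44 and Cfi kept an adjusted p under 0.05 in each fit that left out 1 array. Stox2, Abcb1b, Ceacam10 and Gm10044 each lost it in some of those fits, up to an adjusted p of 0.127 without CKIalpha KO/p21 KO replicate 2.

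**Figure D1:**
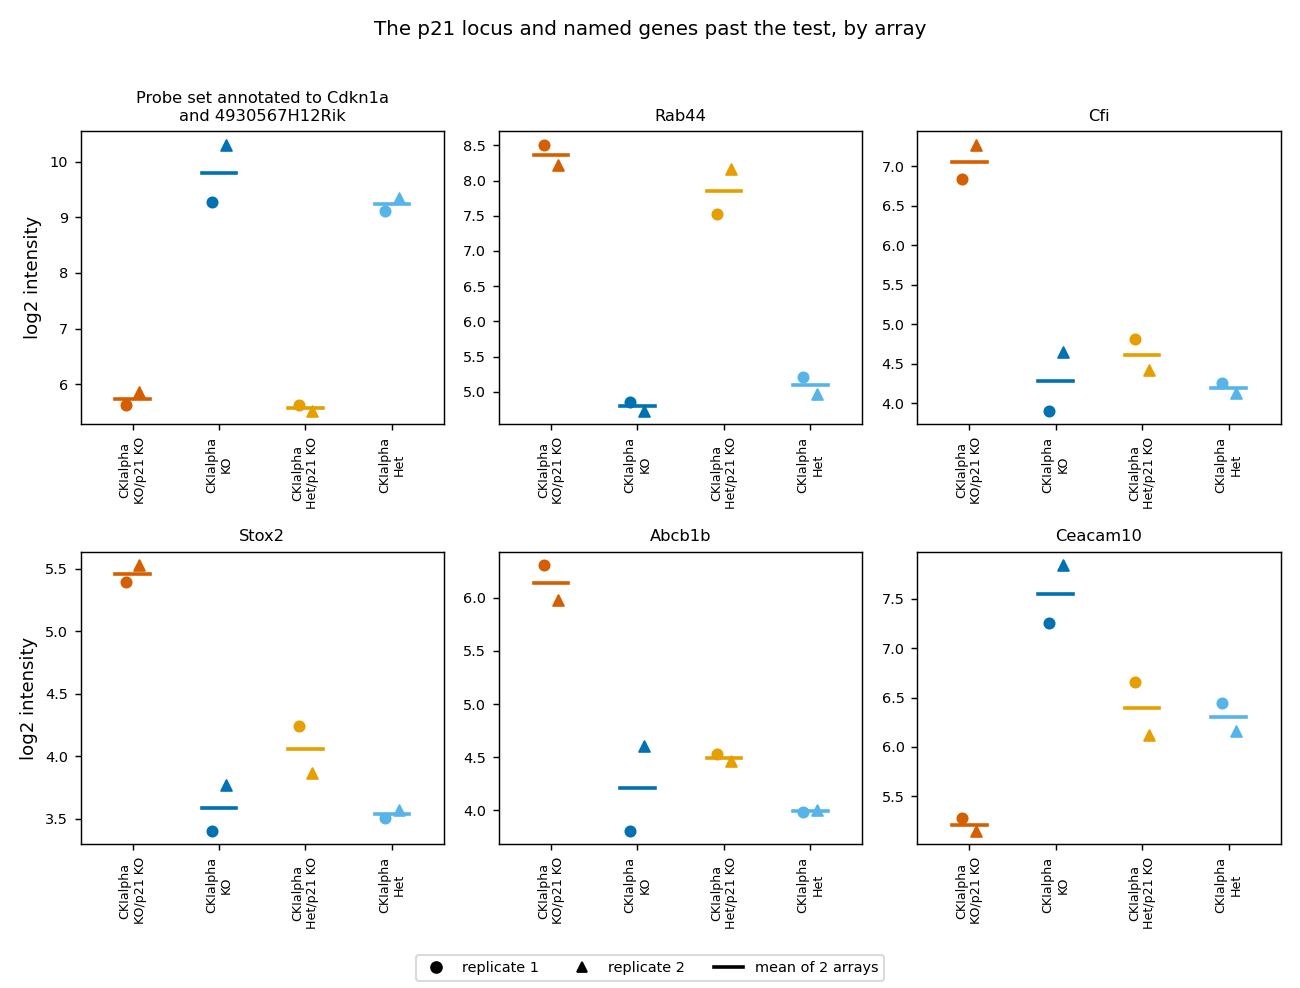
Log2 intensity on each array (circle, replicate 1; triangle, replicate 2; line, mean of 2 arrays) for CKIalpha KO/p21 KO, CKIalpha KO, CKIalpha Het/p21 KO and CKIalpha Het. The Cdkn1a probe set lies between 5.52 and 5.86 on the p21 KO arrays and between 9.12 and 10.30 on the others, Rab44 is high on both p21 KO pairs, and Cfi, Stox2 and Abcb1b are highest in CKIalpha KO/p21 KO, where Ceacam10 is lowest.

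From here on, a signed value given for a gene or list is its log2 difference, CKIalpha KO/p21 KO minus CKIalpha KO, unless another comparison is named. Just outside the threshold on the higher side were Mybl1, for the transcription factor A-Myb, at 1.82 ± 0.25 (adjusted p = 0.0588), and Itpripl1 at 1.13 ± 0.16 (adjusted p = 0.0667). Mybl1 read 5.25 and 5.99 in CKIalpha KO/p21 KO and 3.73 and 3.86 in CKIalpha KO, and between 3.65 and 4.07 in CKIalpha Het/p21 KO and CKIalpha Het. The ribosomal protein gene Rpl34 was at 1.43 (adjusted p = 0.0862), and the replication licensing gene Mcm2 and Ddias, a suppressor of apoptosis after DNA damage, were at 1.38 and 2.00 (adjusted p = 0.102 for each). Without CKIalpha KO replicate 2 Ddias was at 2.54. Nlrp1b, an inflammasome sensor, was at 1.42 (adjusted p = 0.107). It read 5.53 and 5.21 in CKIalpha KO/p21 KO, close to the 5.95 and 5.29 of CKIalpha Het/p21 KO and the 5.41 and 5.41 of CKIalpha Het, and the CKIalpha KO arrays stood apart at 4.09 and 3.82. Ppat and Phgdh, the entry enzymes of purine and serine synthesis, were at 1.40 and 1.19 (adjusted p = 0.15 and 0.241).

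On the lower side, the genes with the smallest p that did not pass were led by Ocm, a calcium-binding protein of the parvalbumin family, at -2.15 (adjusted p = 0.0835). Lncpint, a noncoding RNA that p53 induces in mouse cells, was at -1.40 (adjusted p = 0.147), and read 5.07 and 4.51 in CKIalpha KO/p21 KO against 6.30 and 6.07 in CKIalpha KO. Its CKIalpha Het/p21 KO arrays, at 6.31 and 6.53, lay beside the CKIalpha Het arrays at 6.20 and 6.06. The carboxypeptidase gene Cpq was at -2.20 and the unconventional myosin gene Myo7a at -1.08 (adjusted p = 0.155 for each).

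Genes of DNA replication were higher without p21 almost throughout, although 0 of 39 tested members of that list passed limma over all genes. In 35 of the 39 both CKIalpha KO/p21 KO arrays lay above both CKIalpha KO arrays, against 16.2% of all genes tested, and in 0 the reverse, against 20.6%. An unadjusted p under 0.05 was reached by 32 members on the higher side and 0 on the lower. The list median was 1.02, against -0.04 for all genes. In CKIalpha Het the same list had a median of 0.11 after loss of p21, with 0 members at an unadjusted p under 0.05 in either direction.

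Mcm2, a subunit of the replicative helicase, read 8.05 and 8.78 in CKIalpha KO/p21 KO and 7.03 and 7.03 in CKIalpha KO. Uhrf1, which carries DNA methylation through replication, read 7.49 and 8.29 in CKIalpha KO/p21 KO and 6.12 and 6.12 in CKIalpha KO (1.76 ± 0.28, adjusted p = 0.105). In both genes the CKIalpha KO arrays nearly coincided and the double knockout arrays lay apart, with replicate 2 the higher. Dtl, the adaptor that directs replication-coupled proteolysis, read 6.49 and 7.30 in CKIalpha KO/p21 KO and 5.20 and 5.30 in CKIalpha KO (1.64 ± 0.35, adjusted p = 0.169). The helicase subunit Mcm3, the primase subunit Prim1 and the sliding clamp Pcna were at 1.57, 1.51 and 0.94, and the histone mRNA binding protein Slbp and the single-strand binding subunit Rpa2 at 0.85 and 0.91.

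Mitotic genes likewise differed on the higher side. Of 44 tested members, 0 passed limma, and 39 had an unadjusted p under 0.05, all higher. In 41 both CKIalpha KO/p21 KO arrays lay above both CKIalpha KO arrays (93.2%, against 16.2% of all genes), and in 0 the reverse (against 20.6%). Their median log2 difference was 0.93, against -0.0005 for loss of p21 in CKIalpha Het. Mad2l1, of the spindle checkpoint, read 8.74 and 9.71 in CKIalpha KO/p21 KO and 7.68 and 7.62 in CKIalpha KO (1.57 ± 0.27, adjusted p = 0.153). Spc25, of the kinetochore complex that holds microtubules, read 6.75 and 7.55 in CKIalpha KO/p21 KO and 5.89 and 5.81 in CKIalpha KO (1.30, adjusted p = 0.164). The topoisomerase Top2a read 8.94 and 10.09 in CKIalpha KO/p21 KO and 8.24 and 7.97 in CKIalpha KO (1.41, adjusted p = 0.198). The centromere protein gene Cenpf, the checkpoint kinase gene Bub1, the spindle motor gene Kif11 and the proliferation marker Mki67 were at 1.07, 1.23, 1.01 and 1.12, none of which passed.

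DNA damage and repair genes differed in the same direction, with 0 of 26 past limma, 21 at an unadjusted p under 0.05 and a median of 0.87. Of the 26, 25 were without overlap on the higher side (96.2%, against 16.2% of all genes) and 0 on the lower (against 20.6%). The fork protection gene Tipin and the checkpoint kinase gene Chek1 were at 1.60 and 1.59 (adjusted p = 0.164 and 0.194). The mismatch repair gene Msh6, the exonuclease gene Exo1 and the recombination gene Rad54l followed at 0.91, 1.31 and 1.27. Chek1 read 6.43 and 7.38 in CKIalpha KO/p21 KO and 5.14 and 5.50 in CKIalpha KO, so both double knockout arrays were above both CKIalpha KO arrays.

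The size of these shifts differed between the 2 CKIalpha KO/p21 KO arrays. Relative to the mean of CKIalpha Het, the replication list had a median of 0.46 and 1.40 on the 2 CKIalpha KO/p21 KO arrays and of -0.04 and -0.13 on the CKIalpha KO arrays. The mitosis list stood at 0.48 and 1.52 in CKIalpha KO/p21 KO and at 0.18 and 0.07 in CKIalpha KO. Each double knockout array was thus above both CKIalpha KO arrays, and replicate 2 was farther above than replicate 1. Without replicate 1 the medians of the replication, mitosis and damage lists were 1.43, 1.40 and 1.27, and without replicate 2 they were 0.66, 0.41 and 0.44. The count of replication genes without overlap was then 39 and 35, of mitosis genes 43 and 42, and of damage genes 26 and 25, and with 3 arrays 32.9% and 25.1% of all genes did not overlap on the higher side. Without replicate 1 the genes Mcm2, Uhrf1, Mad2l1, Top2a and Chek1 were at 1.75, 2.17, 2.06, 1.99 and 2.07.

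**Figure D2:**
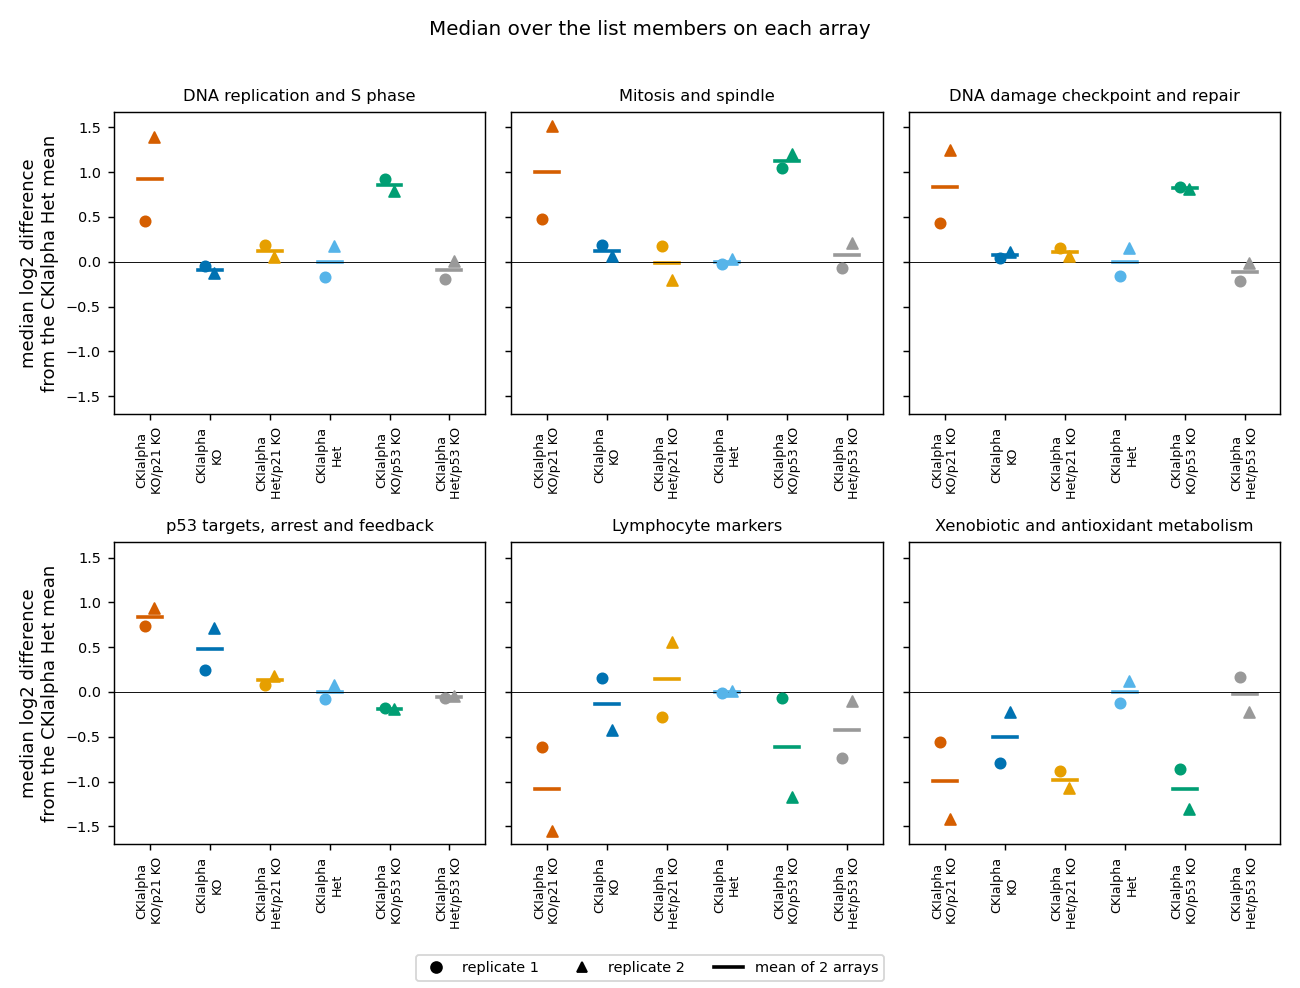
Median over the members of 6 gene lists on each array, as log2 difference from the CKIalpha Het mean, for all 6 groups (circle, replicate 1; triangle, replicate 2; line, mean of 2 arrays). Replication, mitosis and damage lists are above 0 on both CKIalpha KO/p21 KO arrays, at 0.46 and 1.40 for replication, while the CKIalpha KO arrays lie at -0.04 and -0.13; the lymphocyte list is lowest on CKIalpha KO/p21 KO replicate 2.

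The test of whether the p21 effect differs with CKIalpha passed for 0 genes by limma, with 725 at an unadjusted p under 0.05 on the higher side (4.34%) and 634 on the lower (3.79%). The smallest adjusted p was 0.308. At that unadjusted threshold the replication list had 20 of 39 members with a larger effect in CKIalpha KO and the mitosis list 22 of 44, with 0 the other way in either. Among single genes, Mcm2 differed by 1.34 and Mad2l1 by 1.51 (adjusted p = 0.568 for each).

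**Figure D3:**
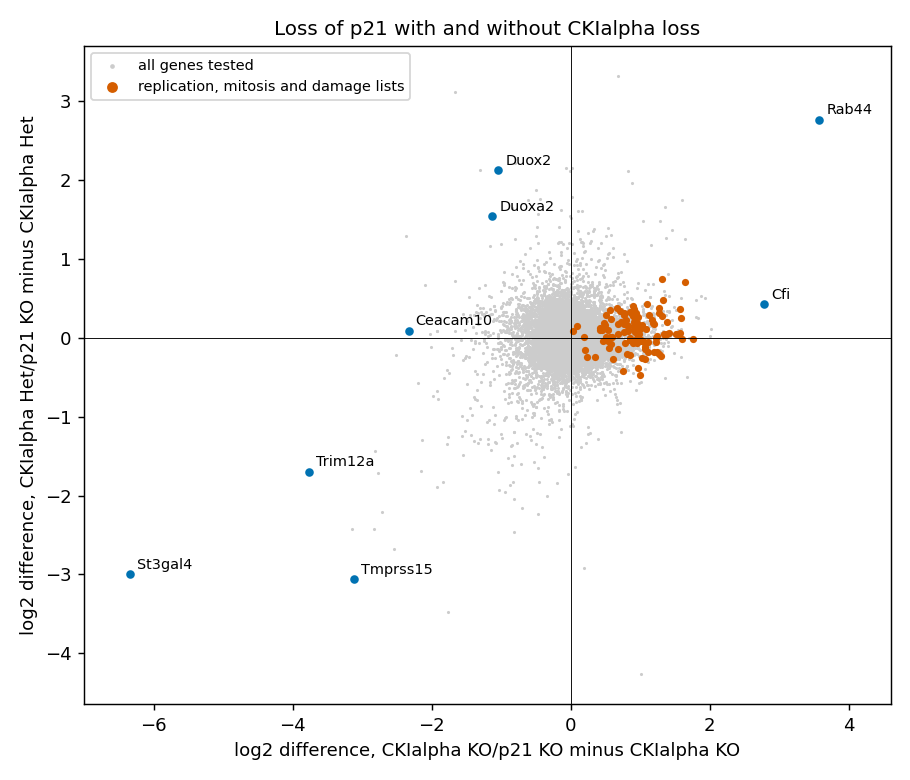
Log2 difference of each of 16721 genes, CKIalpha KO/p21 KO minus CKIalpha KO on the x axis and CKIalpha Het/p21 KO minus CKIalpha Het on the y axis; orange points are members of the replication, mitosis and damage lists, blue points named genes. The replication list has a median of 1.02 along x and 0.11 along y; Rab44 is far from 0 on both axes, and Duox2 and Duoxa2 lie below 0 on x and above 0 on y.

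Loss of p53 in place of p21 can be set beside these values, with the limit that both comparisons use the same CKIalpha KO arrays. The replication list had a median of 1.02 for p21 loss and 1.00 for p53 loss, and the mitosis list 0.93 and 0.98. In the p53 comparison, where limma called 78 genes higher (0.466%) and 38 lower (0.227%), 2 replication genes and 1 mitosis gene passed: Mcm2 at 1.22 (adjusted p = 0.046), Uhrf1 at 1.52 (adjusted p = 0.047) and Mad2l1 at 1.59 (adjusted p = 0.046). The same 3 genes were at 1.38, 1.76 and 1.57 for p21 loss, and did not pass.

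Short sequences known from cell cycle promoters were counted in the 300 bases around the start of each gene, from 250 before to 50 after it, in the RefSeq promoters of GRCm38.p6, on both strands. The letters TTCCCGC (reverse GCGGGAA), a core of E2F sites, were in 17 of 33 replication promoters (51.5%), 9 of 21 damage promoters (42.9%), 0 of 37 mitosis promoters and 1087 of all 13131 (8.28%). The letters TTTGAA (reverse TTCAAA), the cell cycle homology region bound by repressor complexes in mitotic genes, were in 27 of 37 mitosis promoters (73.0%), 4 of 33 replication promoters (12.1%) and 1976 of all 13131 (15%). CCAAT (reverse ATTGG) was in 28 of 37 mitosis and 22 of 33 replication promoters, against 5448 of all. A match is a description of the sequence, and no match says only that these letters are not in the window. The promoters of 4 genes with wide gaps between the groups are printed to show both kinds, with the motif in capitals on either strand: Uhrf1 (chr17:56303087-56303386, plus strand) and Dtl (chr1:191575495-191575794, minus strand) of the replication list with TTCCCGC, and Spc25 (chr2:69206164-69206463, minus strand) and Top2a (chr11:99024140-99024439, minus strand) of the mitosis list with TTTGAA or TTCAAA.
Uhrf1: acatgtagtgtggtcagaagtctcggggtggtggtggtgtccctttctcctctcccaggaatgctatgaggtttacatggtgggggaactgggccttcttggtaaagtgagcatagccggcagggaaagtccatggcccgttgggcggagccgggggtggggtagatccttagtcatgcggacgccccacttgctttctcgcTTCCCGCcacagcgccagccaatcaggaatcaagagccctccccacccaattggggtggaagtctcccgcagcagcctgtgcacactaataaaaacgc
Dtl: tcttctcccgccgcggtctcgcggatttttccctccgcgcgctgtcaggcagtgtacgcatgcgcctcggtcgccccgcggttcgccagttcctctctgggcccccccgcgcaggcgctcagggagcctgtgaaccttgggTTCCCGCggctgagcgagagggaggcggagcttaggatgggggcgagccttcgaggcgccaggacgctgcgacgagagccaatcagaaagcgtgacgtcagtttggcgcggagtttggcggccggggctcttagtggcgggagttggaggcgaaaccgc
Spc25: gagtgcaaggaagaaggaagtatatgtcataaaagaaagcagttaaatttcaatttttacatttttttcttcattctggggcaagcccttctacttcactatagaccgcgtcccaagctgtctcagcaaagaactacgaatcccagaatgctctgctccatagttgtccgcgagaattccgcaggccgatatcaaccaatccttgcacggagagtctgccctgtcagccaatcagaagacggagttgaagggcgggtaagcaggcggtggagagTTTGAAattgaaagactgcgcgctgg
Top2a: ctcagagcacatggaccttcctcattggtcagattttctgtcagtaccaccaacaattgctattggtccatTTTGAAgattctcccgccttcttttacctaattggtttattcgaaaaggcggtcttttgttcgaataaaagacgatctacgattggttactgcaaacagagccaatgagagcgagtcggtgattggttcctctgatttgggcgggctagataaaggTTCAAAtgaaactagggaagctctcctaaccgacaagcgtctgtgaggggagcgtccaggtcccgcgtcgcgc
Each runs 5′ to 3′ on the strand of its gene. Uhrf1 has 2 promoters in the table, of which the one printed holds the motif.

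The cyclin and kinase genes upstream of replication had a smaller median. Of 25 G1 cyclins, kinases and E2F genes, 13 were without overlap on the higher side (against 16.2% of all genes) and 3 on the lower (against 20.6%). The median was 0.30, and 0 passed limma. An unadjusted p under 0.05 was reached by 10 on the higher side (against 7.2% of all genes) and 2 on the lower (against 4.79%). Ccne2, for a cyclin E that starts S phase, read 5.47 and 5.80 in CKIalpha KO/p21 KO and 4.59 and 4.54 in CKIalpha KO (1.07, adjusted p = 0.184). Cdk4, for the kinase partner of the D cyclins, read 9.64 and 10.25 in CKIalpha KO/p21 KO and 8.88 and 9.26 in CKIalpha KO (0.87, adjusted p = 0.221). The double knockout arrays were above both CKIalpha KO arrays in each. The repressor E2f8 and the mitotic activator Foxm1 were at 0.76 and 0.82. Without CKIalpha KO/p21 KO replicate 1 the list median was 0.51, and without replicate 2 it was 0.20.

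No other inhibitor of the cyclin-dependent kinases passed the test in either direction. Of 7 measured, 0 passed limma or were without overlap on the higher side, and 2 were without overlap on the lower (28.6%, against 20.6% of all genes), both with an unadjusted p under 0.05. Cdkn2b, for p15, read 8.43 and 7.93 in CKIalpha KO/p21 KO and 9.08 and 8.99 in CKIalpha KO (-0.85, adjusted p = 0.264). Cdkn1c, for p57, read 6.27 and 6.47 in CKIalpha KO/p21 KO and 6.66 and 6.99 in CKIalpha KO (-0.45, adjusted p = 0.357). The median of the 7 was -0.10 with all arrays, and 0.18 and -0.29 without CKIalpha KO replicate 1 and replicate 2. It was -0.04 without CKIalpha KO/p21 KO replicate 1 and -0.16 without replicate 2.

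Targets of p53 outside p21 had medians above that of all genes. Of 16 targets of arrest and feedback, 8 were without overlap on the higher side (against 16.2% of all genes) and 0 on the lower (against 20.6%). An unadjusted p under 0.05 was reached by 7, all higher (against 7.2% of all genes). By limma 0 passed, and the median was 0.44. Plk2, a stress-induced kinase, read 9.36 and 9.66 in CKIalpha KO/p21 KO and 7.23 and 8.62 in CKIalpha KO (1.58, adjusted p = 0.274). Gtse1, which shuttles p53 out of the nucleus in human cells, read 7.23 and 7.78 in CKIalpha KO/p21 KO and 5.62 and 6.24 in CKIalpha KO (1.58, adjusted p = 0.155). Mdm2, the ligase that degrades p53, read 9.55 and 9.35 in CKIalpha KO/p21 KO and 8.75 and 8.92 in CKIalpha KO (0.62, adjusted p = 0.316). Phlda3, an inhibitor of Akt, and the RNA-binding protein gene Zmat3 were at 1.17 and 0.91.

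Of 11 targets of cell death, 5 were without overlap on the higher side (45.5%, against 16.2% of all genes) and 1 on the lower (9.09%, against 20.6%), with a median of 0.13. The receptor gene Eda2r read 6.62 and 7.55 in CKIalpha KO/p21 KO and 4.87 and 6.12 in CKIalpha KO (1.59, adjusted p = 0.202), and the caspase adaptor Pidd1 and the nuclease Aen were at 1.13 and 0.92. Of 17 further targets, 8 were without overlap on the higher side (47.1%, against 16.2% of all genes) and 3 on the lower (17.6%, against 20.6%), with a median of 0.29. Psrc1, a spindle microtubule protein, was at 1.70, the translesion polymerase gene Polk at 0.87, the microtubule gene Ckap2 at 1.44 and the excision nuclease gene Ercc5 at 0.65. By limma 0 members of either list passed, with 4 and 6 at an unadjusted p under 0.05 on the higher side and 0 and 1 on the lower. Gtse1, Psrc1 and Ckap2 also act in mitosis, and the median of the arrest list was 0.19 without CKIalpha KO replicate 1 and 0.67 without CKIalpha KO replicate 2. The median of the 17 further targets was 0.53 without CKIalpha KO/p21 KO replicate 1 and 0.12 without replicate 2.

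Several of these targets had opposite signs for the loss of p21 and of p53, again against the same CKIalpha KO arrays. Ccng1, a cyclin induced by p53, read 11.58 and 11.80 in CKIalpha KO/p21 KO and 10.63 and 11.44 in CKIalpha KO, at 0.66 for p21 loss (adjusted p = 0.335) and -2.05 for p53 loss (adjusted p = 0.014). Eda2r was at 1.59 for p21 loss and -2.26 for p53 loss (adjusted p = 0.046), and Zmat3 at 0.91 and -1.05, of which neither passed. The arrest list had a median of 0.44 for p21 loss and -0.57 for p53 loss.

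Among 27 Wnt targets the notch ligand Jag1 had the smallest p, at 7.36 and 7.71 in CKIalpha KO/p21 KO and 6.71 and 6.62 in CKIalpha KO (0.87, adjusted p = 0.153). The list had 5 members without overlap on the higher side (18.5%, against 16.2% of all genes), 0 on the lower and a median of 0.30, and 0 passed limma, with 6 at an unadjusted p under 0.05. The median was 0.87 without CKIalpha KO/p21 KO replicate 1 and -0.01 without replicate 2, and 0.10 and 0.82 without CKIalpha KO replicate 1 and replicate 2. The feedback inhibitor Axin2 read 8.75 and 9.35 in CKIalpha KO/p21 KO and 8.17 and 8.75 in CKIalpha KO, which meet at their edge (0.59, adjusted p = 0.371). The oncogene Myc, at 8.76 and 9.79 in CKIalpha KO/p21 KO and 6.86 and 8.90 in CKIalpha KO, overlapped (1.40, adjusted p = 0.374). For p53 loss the list median was 1.16.

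Crypt base markers had a median of 0.57, with 8 at an unadjusted p under 0.05 and 0 past limma. Of the 17, 8 were without overlap on the higher side (47.1%, against 16.2% of all genes) and 0 on the lower (against 20.6%). The ion cotransporter Slc12a2, the telomerase gene Tert, the receptor Tnfrsf19 and the transcription factor Sox4 were at 1.35, 0.73, 1.12 and 1.29. Tert read 6.67 and 6.41 in CKIalpha KO/p21 KO and 5.80 and 5.82 in CKIalpha KO (adjusted p = 0.221). Without CKIalpha KO/p21 KO replicate 1 the median was 0.88, without replicate 2 it was 0.29, and without CKIalpha KO replicate 1 it was 0.30.

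In the list of invasion and mesenchymal genes, chosen for the invasiveness named in the series title, 6 of 26 were without overlap on the higher side (23.1%, against 16.2% of all genes) and 3 on the lower (11.5%, against 20.6%), with a median of 0.17 and 0 past limma (3 at an unadjusted p under 0.05, all higher). The median was -0.0003 without CKIalpha KO/p21 KO replicate 2 and 0.06 after a further quantile normalization. Prox1, a homeobox factor, read 5.83 and 7.77 in CKIalpha KO/p21 KO and 4.43 and 5.13 in CKIalpha KO (2.02, adjusted p = 0.214), and was at 3.34 for p53 loss (adjusted p = 0.044). The membrane protein gene Ifitm3 was at 1.48 for p21 loss and 2.52 for p53 loss (adjusted p = 0.273 and 0.046). The adhesion receptor gene Cd44 was at 1.20, and its CKIalpha KO arrays, at 7.05 and 8.91, overlapped the CKIalpha KO/p21 KO arrays at 8.42 and 9.94.

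**Figure D4:**
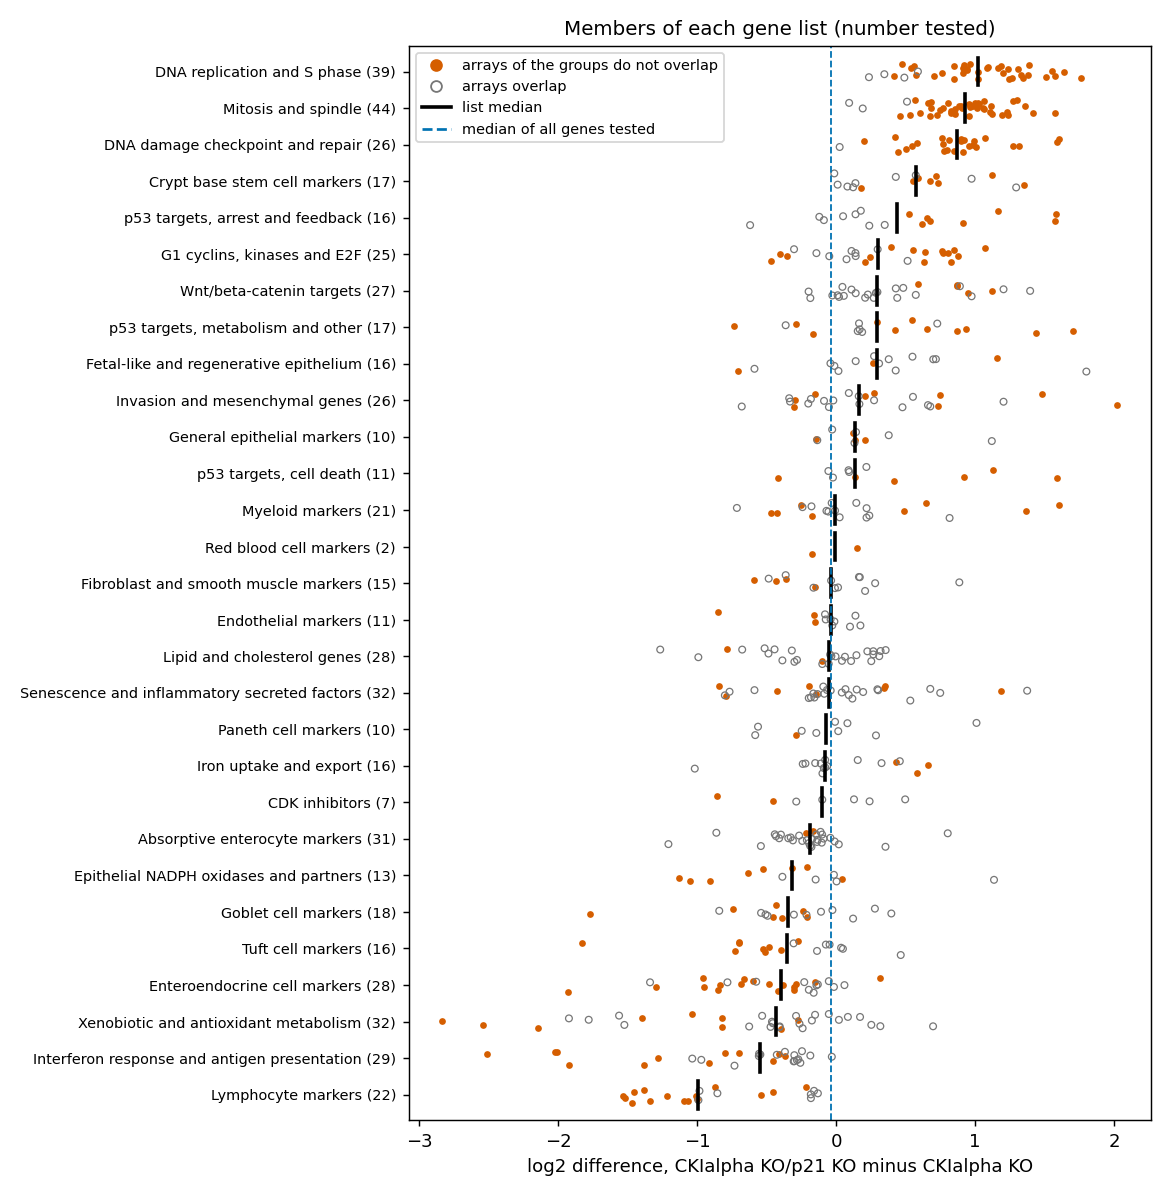
Log2 difference of each list member, CKIalpha KO/p21 KO minus CKIalpha KO, with the number of tested members in brackets; filled orange points are genes whose arrays do not overlap between the groups, open points those that overlap, black bars the list medians and the dashed line the median of all genes at -0.04. The replication, mitosis and damage lists lie to the right, with medians of 1.02, 0.93 and 0.87, and the interferon and lymphocyte lists to the left, with medians of -0.54 and -0.99.

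No gene of the interferon and antigen presentation list passed the test, but the members shared a sign. All 29 tested members had a log2 difference below 0, 12 were without overlap on the lower side (41.4%, against 20.6% of all genes) and 0 on the higher. The median was -0.54, 11 had an unadjusted p under 0.05 and 0 passed limma. H2-Aa, an MHC class II chain, read 8.01 and 7.12 in CKIalpha KO/p21 KO and 11.07 and 9.08 in CKIalpha KO (-2.51, adjusted p = 0.221). The class II chain H2-Eb1 and its chaperone Cd74 were at -1.92 and -2.02, and in all 3 genes CKIalpha KO replicate 1 was the highest of the 4 arrays. The immunoproteasome subunit Psmb8 read 7.35 and 7.61 in CKIalpha KO/p21 KO and 8.57 and 8.22 in CKIalpha KO (-0.91, adjusted p = 0.169), Psmb9 was at -0.80 and the interferon-induced Oasl2 at -1.38.

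Lymphocyte markers shared that sign. All 22 measured had a log2 difference below 0, and 15 were without overlap on the lower side (68.2%, against 20.6% of all genes). Of the 22, 6 had an unadjusted p under 0.05 and 0 passed limma, with a median of -0.99. From the CKIalpha Het mean, the list median was -0.62 and -1.55 in CKIalpha KO/p21 KO and 0.15 and -0.42 in CKIalpha KO. It was -0.06 and -1.175 in CKIalpha KO/p53 KO, -0.74 and -0.10 in CKIalpha Het/p53 KO, and -0.28 and 0.56 in CKIalpha Het/p21 KO. CKIalpha KO/p21 KO replicate 1 was thus above CKIalpha KO/p53 KO replicate 2 and CKIalpha Het/p53 KO replicate 1. Summed over the list, the linear intensities were 4433 and 1763 in CKIalpha KO/p21 KO and 7352 and 4788 in CKIalpha KO. The defining markers were all detected: Cd8a read 9.03 and 7.49 in CKIalpha KO/p21 KO and 9.40 and 9.26 in CKIalpha KO, and the leukocyte gene Ptprc 8.18 and 6.67 in CKIalpha KO/p21 KO and 9.30 and 8.46 in CKIalpha KO. Cd3d, Cd8b1, Cd5 and the natural killer receptor gene Klrd1 were at -1.09, -1.22, -1.01 and -1.52. In bulk RNA, fewer cells of a type and less RNA per cell cannot be told apart, and the part of lymphocytes in the values of the interferon list was not tested. Without CKIalpha KO/p21 KO replicate 1 the medians were -0.82 for the interferon and -1.50 for the lymphocyte list, and without replicate 2 they were -0.24 and -0.45.

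Enteroendocrine, tuft and goblet cell markers had medians below that of all genes. Of 28 enteroendocrine markers, 16 were without overlap on the lower side (57.1%, against 20.6% of all genes) and 1 on the higher (3.57%, against 16.2%). Their median was -0.40, and 0 passed limma (9 at an unadjusted p under 0.05, all lower). The peptide hormone gene Gip read 7.77 and 5.64 in CKIalpha KO/p21 KO and 9.05 and 8.24 in CKIalpha KO (-1.93, adjusted p = 0.241). Pcsk1, the protease that processes prohormones, read 6.92 and 7.11 in CKIalpha KO/p21 KO and 8.10 and 7.61 in CKIalpha KO (-0.84, adjusted p = 0.169). The hormone gene Cck, the granule protein gene Chga and the endocrine transcription factor Isl1 were at -1.30, -0.67 and -0.60. Without CKIalpha KO/p21 KO replicate 2 the list median was -0.23, and without CKIalpha KO replicate 1 it was -0.24.

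Of 16 tuft cell markers, 9 were without overlap on the lower side (56.2%, against 20.6% of all genes) and 0 on the higher (against 16.2%). Their median was -0.35, with 6 at an unadjusted p under 0.05 and 0 past limma. The phospholipase Plcb2 was at -0.70 and the kinase Dclk1 at -0.40. Of 18 goblet markers, 7 were without overlap on the lower side (38.9%, against 20.6% of all genes) and 0 on the higher (against 16.2%). Their median was -0.34, with 2 at an unadjusted p under 0.05 and 0 past limma. Ern2, a stress sensor of mucus-secreting cells, Atoh1, which specifies secretory cells, and the mucus protein gene Clca1 were at -0.46, -0.39 and -0.84. The tuft median was -0.17 without CKIalpha KO replicate 1, and the goblet median -0.22 without that array and -0.15 without CKIalpha KO/p21 KO replicate 2. Paneth markers had a median of -0.07, with 1 of 10 without overlap on the lower side, and their sign turned on single arrays. It was 0.26 without CKIalpha KO/p21 KO replicate 1 and -0.51 without replicate 2, and -0.40 and 0.14 without CKIalpha KO replicate 1 and replicate 2.

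The absorptive enterocyte list had few members apart. Of 31 members, 2 were without overlap on the lower side (6.45%, against 20.6% of all genes) and 0 on the higher (against 16.2%). Its median was -0.19, with 0 members at an unadjusted p under 0.05. On single arrays its median from the CKIalpha Het mean was -0.02 and -0.74 in CKIalpha KO/p21 KO and -0.09 and -0.11 in CKIalpha KO. Replicate 2 of the double knockout thus stood alone among these 4 arrays. Both CKIalpha KO/p53 KO arrays were also low, at -0.52 and -0.63. The median difference was -0.55 without CKIalpha KO/p21 KO replicate 1, with 29 of 31 members without overlap on the lower side (93.5%, against 37.2% of all genes with these 3 arrays). It was 0.14 without replicate 2, with 17 on the higher side (54.8%, against 25.1% of all genes). In the xenobiotic list CKIalpha KO/p21 KO replicate 2 was the lowest of the 4 arrays but did not stand alone. The medians from the CKIalpha Het mean were -0.56 and -1.42 in CKIalpha KO/p21 KO and -0.79 and -0.22 in CKIalpha KO. They were -0.86 and -1.31 in CKIalpha KO/p53 KO and -0.89 and -1.07 in CKIalpha Het/p21 KO. Single genes of the list had that array far apart. Cyp3a11, a drug-oxidising cytochrome, read 9.27 and 4.13 in CKIalpha KO/p21 KO and 9.33 and 9.74 in CKIalpha KO, and the alcohol dehydrogenase Adh1 11.20 and 7.84 in CKIalpha KO/p21 KO and 11.40 and 11.92 in CKIalpha KO. Of 32 xenobiotic genes, 9 were without overlap on the lower side (28.1%, against 20.6% of all genes) and 0 on the higher, with 6 at an unadjusted p under 0.05 and 0 past limma. Without CKIalpha KO/p21 KO replicate 1 their median was -0.84 and without replicate 2 it was -0.15, and without CKIalpha KO replicate 1 and replicate 2 it was -0.69 and -0.24. With all arrays it was -0.43, and -0.98 for the loss of p21 in CKIalpha Het, where 26 of the 32 were without overlap on the lower side (20.5% of all genes) and limma called 0 genes of any kind lower, with 417 lower at an unadjusted p under 0.05.

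The epithelial NADPH oxidases, which release hydrogen peroxide or superoxide at the cell surface, included a pair of genes with effects of opposite sign in CKIalpha KO and CKIalpha Het. Duox2 read 8.71 and 8.99 in CKIalpha KO/p21 KO and 10.08 and 9.71 in CKIalpha KO, but 7.97 and 8.32 in CKIalpha Het/p21 KO and 5.64 and 6.41 in CKIalpha Het. None of these 4 pairs overlapped. The effect of p21 loss was -1.05 ± 0.33 in CKIalpha KO (adjusted p = 0.281) and 2.12 in CKIalpha Het (adjusted p = 0.361). Their difference of -3.17 did not pass (limma interaction, adjusted p = 0.308). It was -3.03 without CKIalpha KO/p21 KO replicate 1. Duoxa2, the maturation factor of Duox2, read 7.86 and 9.14 in CKIalpha KO/p21 KO and 9.74 and 9.52 in CKIalpha KO, and 7.25 and 7.04 in CKIalpha Het/p21 KO against 5.48 and 5.74 in CKIalpha Het. The difference of its effects was -2.67 and did not pass (limma interaction, adjusted p = 0.566). It was -2.02 without CKIalpha KO/p21 KO replicate 1 and -3.31 without replicate 2. Either fit leaves 1 array in that group, so its spread is taken from the other groups. In CKIalpha KO alone the effect on Duoxa2 was -1.13 (adjusted p = 0.258), and without CKIalpha KO/p21 KO replicate 2 it was -1.77. Nox1, another epithelial oxidase, read 8.43 and 9.52 in CKIalpha KO/p21 KO and 7.16 and 8.52 in CKIalpha KO, with overlap (1.14, adjusted p = 0.369). Of the 13 genes of this list, 7 were without overlap on the lower side (53.8%, against 20.6% of all genes) and 1 on the higher (7.69%, against 16.2%). By limma 0 passed, with 2 lower and 1 higher at an unadjusted p under 0.05. The list median was -0.32, and -0.19 without CKIalpha KO/p21 KO replicate 1.

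The widest gap on the lower side belonged to a gene that did not pass, and whose CKIalpha Het arrays also split. St3gal4, a sialyltransferase gene, read 4.481 and 5.003 in CKIalpha KO/p21 KO and 10.85 and 11.31 in CKIalpha KO, a difference of -6.34 ± 1.53 (adjusted p = 0.202). It read 4.57 and 4.65 in CKIalpha Het/p21 KO but 4.29 and 10.92 in CKIalpha Het, and 6.49 and 5.59 in CKIalpha KO/p53 KO. Trim12a read 3.75 and 3.69 in CKIalpha KO/p21 KO and 7.27 and 7.71 in CKIalpha KO, with 3.51 and 7.61 in CKIalpha Het (-3.77 ± 0.94, adjusted p = 0.208). High values of both genes were thus found on both CKIalpha KO arrays and CKIalpha Het replicate 2, and on none of the p21 KO arrays. With either CKIalpha Het array left out, which removes that spread from the fit, both genes passed (adjusted p = 8.74e-05 for each). Trim30d, of the same family, read 5.67 and 3.96 in CKIalpha KO/p21 KO and 7.82 and 8.11 in CKIalpha KO (-3.15, adjusted p = 0.164). Such a split follows neither the CKIalpha nor the p21 label, and its source was not tested.

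Other wide gaps on the lower side were in digestive and secreted proteins. Tmprss15, the enteropeptidase that activates trypsinogen, read 6.60 and 3.74 in CKIalpha KO/p21 KO and 8.40 and 8.18 in CKIalpha KO (-3.12, adjusted p = 0.2), and 3.80 and 3.21 in CKIalpha Het/p21 KO against 6.73 and 6.40 in CKIalpha Het (-3.06, adjusted p = 0.489). The lectin-like Reg1 read 4.63 and 5.27 in CKIalpha KO/p21 KO and 8.22 and 7.31 in CKIalpha KO (-2.81, adjusted p = 0.194). The alcohol dehydrogenase Adh4 was at -2.72 in CKIalpha KO and -2.21 in CKIalpha Het. Ubd, a ubiquitin-like protein of the interferon response, and Il7r, a lymphocyte cytokine receptor, were at -2.36 and -1.88 in CKIalpha KO and 1.28 and 0.25 in CKIalpha Het, none of them past the test.

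**Figure D5:**
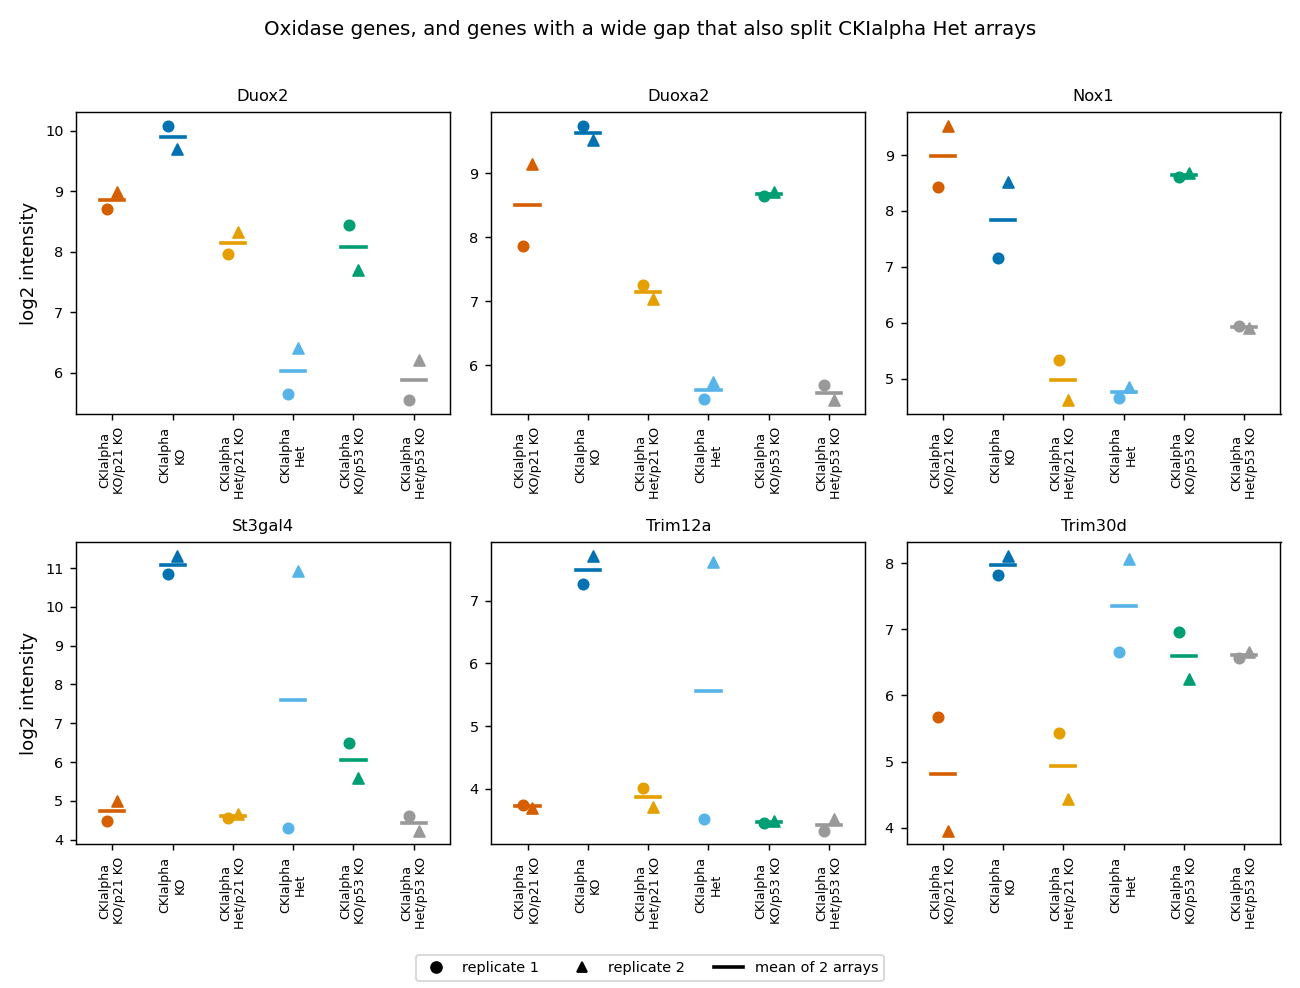
Log2 intensity on each array (circle, replicate 1; triangle, replicate 2; line, mean of 2 arrays) in 6 groups. Duox2 and Duoxa2 are lower in CKIalpha KO/p21 KO than in CKIalpha KO and higher in CKIalpha Het/p21 KO than in CKIalpha Het; St3gal4 and Trim12a are high on both CKIalpha KO arrays and on CKIalpha Het replicate 2, at 10.92 and 7.61.

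The targeted kinase gene Csnk1a1 read 10.70 and 10.70 in CKIalpha KO/p21 KO and 10.55 and 10.65 in CKIalpha KO, with a log2 difference of 0.10 ± 0.13 (adjusted p = 0.797) that turned to -0.0782 when the arrays were also quantile normalized. Both groups carry the same deletion, whose exons are not given in the sources used here, so this probe set checks no genotype.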

How the data were processed

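Total RNA of mouse enterocytes was hybridised to Affymetrix arrays, and the intensities were extracted with Affymetrix Expression Console 1.1 by RMA and median-normalised, per the labels' protocols. The values deposited by the authors were taken as log2 intensities; the base is not stated and was read from the array medians of 4.96 to 5.12. Of 35556 probe sets, 21789 carried 1 symbol in the platform annotation, and the brightest probe set stood for a gene. Genes above the array's own 25th percentile on 2 or more of 12 arrays were tested (16721). Symbols of 16665 were matched to RefSeq GRCm38.p6 by Entrez number. The 12 arrays of 6 groups were fitted with limma 3.58.1 in R 4.3.3 (6 residual degrees of freedom, prior 3.80), and p-values were two-sided and adjusted by Benjamini and Hochberg over all genes tested, at a threshold of 0.05. The fit was run on simulated data with independent normal noise for each gene and array. Such noise holds no deviation shared by many genes of an array, so that run could not cover it. Errors are standard errors of the fit, and the number of arrays limits the precision. The spread is pooled over groups, so p-values measure the spread between these arrays. Array 13, titled CKIalpha KO/p53 KO (3) but with the genotype label of CKI KO, entered no comparison.

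The comparison, the 29 gene lists and the naming rule were chosen with earlier results of these data known. The rule named up to 15 called genes each way (or those of smallest p), the 12 of widest gap each way, 6 or fewer members a list by smallest p, cell type markers, and the genes beside Cdkn1a. A gene is without overlap when the lowest array of one group exceeds the highest of the other. The alternatives were no filter, quantile normalization, an intensity trend, a replicate block, array weights, means over probe sets, the compared arrays alone, and each array left out.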

Additional observations from a re-analysis of the deposited data

How the results depend on the processing

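The number of genes called changed with the processing and with single arrays. Array weights were equal within each group, at 0.674 for both CKIalpha KO/p21 KO arrays and 0.6857 for both CKIalpha KO arrays. They therefore set groups apart and not single arrays. The 4 higher and 2 lower calls of the main comparison were 2 and 0 with array weights (837 and 422 at an unadjusted p under 0.05) and 0 and 0 in a limma fit of the 4 arrays alone (549 and 375). They were 3 and 2 after a further quantile normalization, and 5 and 2 with an intensity trend, which added Mybl1. Leaving out 1 array gave 2 to 761 higher and 0 to 387 lower, 0 to 4 higher and 0 to 5 lower for loss of p21 in CKIalpha Het, and 0 to 74 higher and 0 to 34 lower for the difference of the effects. The upper ends came without CKIalpha KO/p21 KO replicate 1, except the 4 of CKIalpha Het, which came without CKIalpha Het/p21 KO replicate 1, and the 5, which came without either CKIalpha KO/p21 KO array. The 0 lower calls in CKIalpha Het became 1 after quantile normalization and 1 with array weights. Rab44 and Cfi passed in all of these but the fit of 4 arrays (adjusted p = 0.0856 and 0.805), and Rab44 in CKIalpha Het missed without CKIalpha Het replicate 2 (0.117). Quantile normalization turned Csnk1a1 to -0.0782, and without CKIalpha KO replicate 1 the iron reductase gene Cybrd1 was at -1.72 and without replicate 2 at 2.37, against 0.33 with all arrays. Counts of list members without overlap, an alternative chosen after seeing the data, were 35, 40 and 25 for the replication, mitosis and damage lists after quantile normalization, against 19.8% of all genes. Correlations between groups of the difference of replicate 2 from replicate 1 ran from -0.16 to 0.25, with 0.21 for CKIalpha KO/p21 KO and CKIalpha KO; the labels state no pairing, and the samples were taken as sharing only a number, although the number also matched low and high Xist in these groups. The replicate block gave 3 higher and 1 lower, and Abcb1b (adjusted p = 0.0891) and Gm10044 (0.0572) missed. A fit without 1 array leaves 1 array in that group, with its spread taken from the other groups. The cause of these changes was not tested.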

Other observations

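Some gene groups outside the themes above held single genes with wide differences or spread. Among iron genes Hmox1, which degrades haem, read 4.75 and 5.34 in CKIalpha KO/p21 KO and 4.35 and 4.42 in CKIalpha KO (0.66, adjusted p = 0.276). Cybrd1, an iron reductase gene, read 9.94 and 10.25 in CKIalpha KO/p21 KO and 7.72 and 11.81 in CKIalpha KO, so its CKIalpha KO arrays enclosed the others. Among secreted factors of senescence, Ereg, a ligand of the EGF receptor, read 7.51 and 8.18 in CKIalpha KO/p21 KO and 6.48 and 6.83 in CKIalpha KO (1.19, adjusted p = 0.312). The list of 32 had 3 members without overlap on the higher side (9.38%, against 16.2% of all genes) and 5 on the lower (15.6%, against 20.6%). Its median was -0.05. It was 0.05 without CKIalpha KO replicate 1, 0.02 without CKIalpha KO/p21 KO replicate 1 and -0.01 without replicate 2. After a further quantile normalization it was 0.02. Acadm, of mitochondrial fatty acid oxidation, read 9.99 and 9.80 in CKIalpha KO/p21 KO and 10.59 and 10.78 in CKIalpha KO (-0.79, adjusted p = 0.169).

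The array left out of all comparisons read 10.04 for the probe set shared with Cdkn1a, 5.23 for Rab44, 6.82 for Cfi, 6.88 for Ceacam10 and 4.40 for St3gal4.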
